A study of Mus musculus with 11 samples.

Results

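The genes described here are the ligands, receptors, inhibitors and transcription factors of Wnt signalling, with the feedback genes that Wnt signalling itself switches on. They were taken by gene symbol from the deposited expression table: Wnt, Frizzled (Fzd), Lrp5 and Lrp6, R-spondin (Rspo), Lgr4 to Lgr6, Sfrp, Dkk, Dkkl1, Wif1, Notum, Apcdd1, Znrf3, Rnf43, Ctnnb1, Axin, Nkd, Tcf7, Tcf7l1, Tcf7l2 and Lef1. The symbols matched 62 of 37991 rows and 61 different genes, because Fzd10 was listed under 2 identifiers, of which the second was listed at 0 in every library. Of the 62 rows, 36 reached at least 1 CPM (mapped reads per gene, scaled to library size) in at least 2 libraries and were tested. The other 26 missed this minimum and are described by their values. The rule reads symbols only, not measured values, but the members were chosen with earlier results of these data known.

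Poly(A) RNA had been sequenced from mouse neural stem cells grown from the frontal cortex of C57BL/6J embryos at embryonic stage E14.5, and from cultures of the same kind after a change of medium. The group NSC held 3 libraries from proliferating cells at day 0. For the group Astrocyte (3 libraries) cells had spent 4 days in DMEM supplemented with fetal bovine serum (1%) and N-2 (1%), for the group Neuron (3 libraries) in Neurobasal supplemented with B-27 (2%), and for the group Oligodendrocyte (2 libraries) in that Neurobasal medium plus T3, a thyroid hormone, at 30 ng/mL. All 3 media held GlutaMAX. No transgene or deletion was named for any group. The group names give the medium, not the cells a culture held, and in the comparisons with NSC the medium and the 4 days of culture cannot be told apart, since no day 4 culture in proliferation medium was analysed here. The replicates are called biological in the study's design text, but the culture or litter each came from is not given, so the p-values measure the spread between these libraries, which may in part be technical.

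Wnt proteins are secreted, lipid-bearing signals that bind Frizzled receptors on nearby cells. With the co-receptors Lrp5 and Lrp6 they stop the Axin complex from destroying beta-catenin (Ctnnb1), which then joins TCF/LEF proteins on DNA, whereas other Wnt and Frizzled pairs act on cell shape and polarity without beta-catenin. In the developing cortex Wnt signalling is known for its part in progenitor division and in the timing of neuron and glia production.

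Depth was estimated from the spacing of the lowest values at 49.3 to 66.2 M (mega) reads a library, so that 1 read was worth 0.0151 to 0.0203 CPM and a listed 0 allows up to 0.0453 to 0.0609 CPM (3 reads, counting error only). Mitochondrial genes took 6.01% to 11.4% of the listed CPM, the highest share being that of Neuron replicate 2. Summed astrocyte markers (Gfap, Aqp4, Aldh1l1, Slc1a2, Slc1a3, S100b) were 1429 to 1481 CPM in NSC, 11067 to 12686 in Astrocyte, 6881 to 7461 in Neuron and 2065 to 2278 in Oligodendrocyte. Between Astrocyte and Neuron the 6 markers split. Gfap and Aqp4 were called higher in Astrocyte, and the other 4, Aldh1l1, Slc1a2, Slc1a3 and S100b, were called higher in Neuron. Mbp, a myelin gene and oligodendrocyte marker, was 1.3 to 2.09 CPM in NSC, 30.0 to 47.0 in Astrocyte, 456.4 to 521.8 in Neuron and 532.8 to 654.7 in Oligodendrocyte. Summed neuron markers (Tubb3, Rbfox3, Dcx, Syt1, Snap25) were 13.1 to 14.9 CPM in NSC, 151 to 206 in Astrocyte, 143 to 225 in Neuron and 136 to 145 in Oligodendrocyte, a sum made up mostly of Dcx and Tubb3. Syt1 and Rbfox3 were highest in Neuron, at 8.0 to 12.8 and 1.65 to 2.8 CPM, against at most 4.47 and 1.36 CPM in the other day 4 libraries, while Tubb3 was called lower in Neuron than in Astrocyte and Oligodendrocyte. The division markers Mki67 and Top2a together fell from 1505 to 1653 CPM in NSC to between 22.4 and 68.3 CPM in the day 4 libraries. In bulk RNA, fewer cells of a type and less RNA per cell cannot be told apart.

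Promoters were read first, because TCF/LEF proteins bind short motifs near the genes they control. The RefSeq table on build GRCm38.p6 held promoters for 40 of the 61 genes, 50 promoters in all, taken as the 250 bases before each transcription start. The motifs CTTTGAT and CTTTGAA, which share all but the last letter, so that a site matches only one of them, were searched on both strands. They were found in 3 of the 50 promoters (6.0%), those of Wnt5b, Wnt11 and Dkk1, against 2457 of 32851 promoters of all genes (7.48%). The median number of CpG pairs was 18.5 in the promoters of the Wnt genes and 6.0 in all promoters. The 3 sequences below are those of 2 ligands that rose in every day 4 culture, Wnt5b and Wnt9a, and of Axin2, a feedback gene that fell in every day 4 culture; capitals mark the motif.
Wnt5b, chr6:119449387-119449636, minus strand: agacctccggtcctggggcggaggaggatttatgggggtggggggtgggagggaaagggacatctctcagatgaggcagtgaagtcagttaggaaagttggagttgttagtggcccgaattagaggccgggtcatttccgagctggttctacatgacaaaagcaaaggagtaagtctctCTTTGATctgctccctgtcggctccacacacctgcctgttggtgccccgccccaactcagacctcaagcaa
Wnt9a, chr11:59306680-59306929, plus strand: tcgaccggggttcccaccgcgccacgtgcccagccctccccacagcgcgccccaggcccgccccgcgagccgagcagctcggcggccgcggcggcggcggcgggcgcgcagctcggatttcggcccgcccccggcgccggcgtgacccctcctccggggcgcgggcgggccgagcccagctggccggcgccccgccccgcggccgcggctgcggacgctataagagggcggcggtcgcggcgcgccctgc
Axin2, chr11:108920099-108920348, plus strand: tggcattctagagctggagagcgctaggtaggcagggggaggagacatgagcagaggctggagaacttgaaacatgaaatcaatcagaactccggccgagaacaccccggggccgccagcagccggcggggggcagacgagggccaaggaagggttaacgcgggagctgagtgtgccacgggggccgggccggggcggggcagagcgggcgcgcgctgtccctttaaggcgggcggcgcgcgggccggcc
The Wnt5b promoter, 1 of 3 listed for this gene, holds CTTTGAT with its first base 71 bases before the start. The windows of Wnt9a and Axin2 hold neither motif, and 48 and 24 CpG pairs. A motif match is a description of these letters only.

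The first question was how the Wnt genes differed between the day 0 stem cells and each day 4 culture. Across the family, Fzd9, Fzd10, Lgr5, Axin2, Znrf3 and Tcf7 fell in all 3 day 4 cultures, and Wnt5b, Wnt9a, Fzd6, Fzd8, Sfrp1, Tcf7l1 and Tcf7l2 rose in all 3. A difference was called where limma's moderated test on log2(CPM + 1) gave an adjusted p under 0.05, on a scale that understates the fold changes of low genes. In Astrocyte vs NSC 30 of the 36 tested Wnt genes were called, 16 higher and 14 lower, against 83.6% of all 13342 tested genes (48% higher, 35.6% lower). In Neuron vs NSC 31 were called, 14 higher and 17 lower, against 83.1% of all genes (43.5% higher, 39.6% lower). In Oligodendrocyte vs NSC 33 were called, 17 higher and 16 lower, against 80.2% of all genes (48.1% higher, 32.2% lower). Most genes of any kind were called in these comparisons. A change of at least 2-fold was called for 17 Wnt genes in Astrocyte vs NSC (47.2%, all genes 33.7%), 10 higher (all genes 21.4%) and 7 lower (12.3%). The number was 16 in Neuron vs NSC (44.4%, all genes 31.8%), 7 higher (17.9%) and 9 lower (13.8%), and 16 in Oligodendrocyte vs NSC (44.4%, all genes 32%), 10 higher (21.2%) and 6 lower (10.7%). The median log2 fold change of the Wnt genes was 0.09, -0.06 and 0.12 in these 3 comparisons, beside 0.15, 0.06 and 0.19 for all genes.

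Between the day 4 media fewer Wnt genes changed by 2-fold. Astrocyte vs Neuron had 28 called, 16 higher and 12 lower (all genes 62.2%, with 40.3% higher and 22% lower), 6 of them at least 2-fold (all genes 9.34%), 4 higher (6.39%) and 2 lower (2.95%). Oligodendrocyte vs Neuron had 21 called, 13 higher and 8 lower (all genes 67.5%, with 43.9% higher and 23.6% lower), 9 of them at least 2-fold (all genes 12.5%), 6 higher (8.96%) and 3 lower (3.58%). Oligodendrocyte vs Astrocyte had 24 called, 11 higher and 13 lower (all genes 52.2%, with 28.7% higher and 23.5% lower), 5 of them at least 2-fold (all genes 7.94%), 3 higher (4.53%) and 2 lower (3.41%). The Wnt medians were 0.18, 0.02 and 0.08, beside 0.10, 0.15 and 0.04 for all genes. Against NSC there was no overlap of libraries for 31, 32 and 34 of the 36 Wnt genes in Astrocyte, Neuron and Oligodendrocyte (all genes 86.2%, 83.2% and 89.3%). For Astrocyte vs Neuron, Oligodendrocyte vs Neuron and Oligodendrocyte vs Astrocyte the numbers were 29, 25 and 28 (all genes 63%, 75.7% and 71.7%).

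The balance of higher and lower calls moved with the scaling in some comparisons, for all genes as well as for the Wnt genes. Of the Wnt calls in Oligodendrocyte vs Neuron 61.9% were higher as deposited, 47.6% with median-of-ratios factors and 40.9% after quantile normalization. The shares of all genes there were 65.1%, 52.5% and 48%. The Wnt share hardly moved in Neuron vs NSC (45.2%, 45.2% and 45.5%) and stayed at 45.8% in Oligodendrocyte vs Astrocyte. Among the 2-fold calls the share higher in Astrocyte vs NSC was 58.8% as deposited and 44.4% under quantile normalization. In Neuron vs NSC it was 43.8% as deposited and 33.3% under both scalings. In Oligodendrocyte vs NSC it was 62.5% as deposited, 50% with median-of-ratios factors and 41.2% after quantile normalization. For Astrocyte vs Neuron it was 66.7% and 42.9% under quantile normalization, and for Oligodendrocyte vs Astrocyte 60%, 50% and 42.9%. Median-of-ratios scaling moved the median of all genes from 0.15 to -0.01 in Astrocyte vs NSC, from 0.19 to 0.00 in Oligodendrocyte vs NSC and from 0.15 to 0.03 in Oligodendrocyte vs Neuron, and small changes are relative to these shifts.

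**Figure D1:**
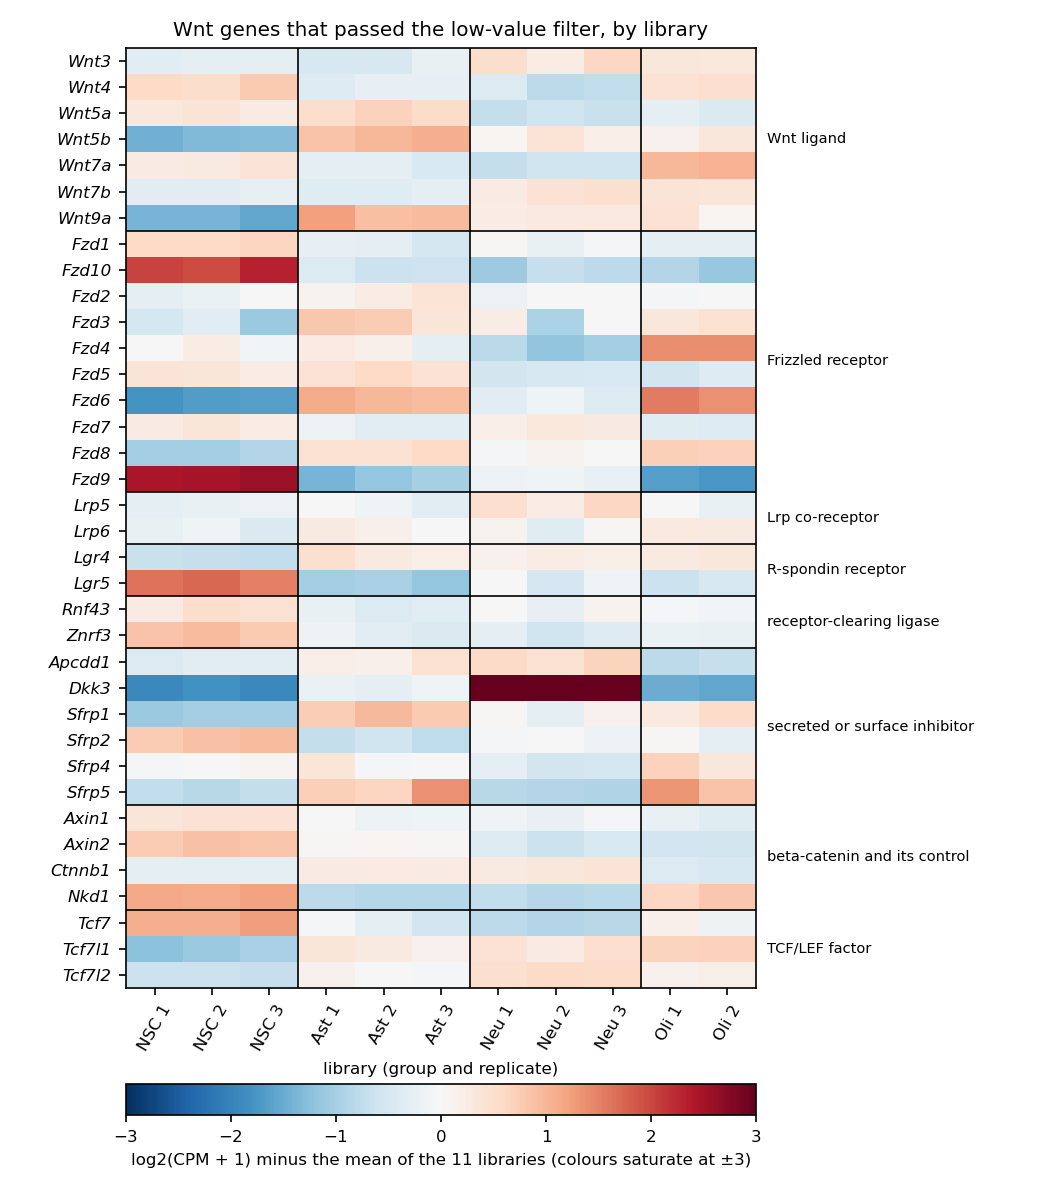
The 36 tested Wnt genes (rows, by role) in the 11 libraries (columns, by group and replicate), coloured by log2(CPM + 1) minus the gene's mean over the 11 libraries. Fzd9, Fzd10, Lgr5, Axin2, Nkd1 and Tcf7 are above their mean in all 3 NSC libraries, and Dkk3 stands out in the 3 Neuron libraries, which read 43.8 to 49.6 CPM.

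Of the 19 Wnt ligands 7 were tested, and all 7 were called in Neuron vs NSC, 4 higher and 3 lower. In Astrocyte vs NSC 5 were called, 3 higher and 2 lower, and in Oligodendrocyte vs NSC 6, 5 higher and 1 lower. Of all genes 83.6% were called in Astrocyte, 83.1% in Neuron and 80.2% in Oligodendrocyte against NSC, and these counts lie near that background. The largest rises were those of Wnt9a and Wnt5b. Wnt9a (ENSMUSG00000000126, mm9 chromosome 11, 59120430 to 59147054), a ligand known from joint and skeletal development, read 0.59, 0.59 and 0.42 CPM in NSC, 8.82, 6.91 and 7.19 in Astrocyte, 3.88, 4.15 and 4.13 in Neuron, and 4.67 and 3.41 in Oligodendrocyte. The NSC libraries were all under 0.6 CPM and all 8 day 4 libraries were above 3 CPM, with Astrocyte highest. Wnt9a rose in Astrocyte vs NSC (a log2 change of 2.49, SE 0.111, adjusted p 8.45e-11), and was lower in Oligodendrocyte than in Astrocyte (a log2 change of -0.78, SE 0.124, adjusted p 0.000154). It also rose in Neuron and Oligodendrocyte, by log2 fold changes of 1.72 and 1.71, and between these 2 media it did not pass the test (adjusted p 0.922).

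Wnt5b (ENSMUSG00000030170, mm9 chromosome 6, 119382549 to 119494336), a ligand that mostly acts without beta-catenin, read 1.67, 1.88 and 1.95 CPM in NSC, 12.03, 13.3 and 14.3 in Astrocyte, 6.47, 8.64 and 7.28 in Neuron, and 6.93 and 8.11 in Oligodendrocyte. The order of the groups was that of Wnt9a, with NSC lowest, Astrocyte highest and the 2 Neurobasal media overlapping. The rise in Astrocyte vs NSC (log2 fold change 2.33, SE 0.105, adjusted p 9.94e-11) was followed by smaller ones in Neuron (1.57) and Oligodendrocyte (1.59). Among day 4 cultures it was higher in Astrocyte than in Neuron (a log2 change of 0.76, SE 0.105, adjusted p 3.35e-05). Fbxl14, at up to 35.8 CPM, overlaps Wnt5b on the other strand, and whether the authors counted by strand is not given in the sources used here.

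Wnt5a (ENSMUSG00000021994, mm9 chromosome 14, 29317936 to 29340633), the best known ligand of the pathway without beta-catenin, read 106, 112 and 102 CPM in NSC, 124, 137 and 126 in Astrocyte, 51.0, 55.4 and 53.0 in Neuron, and 68.6 and 62.3 in Oligodendrocyte. Astrocyte libraries were the highest and Neuron libraries the lowest, with no overlap between any 2 groups. The largest difference was Astrocyte vs Neuron (a log2 change of 1.26, SE 0.064, adjusted p 3.09e-09). Against NSC, Wnt5a rose in Astrocyte by 0.27 (adjusted p 0.00142) and fell in Neuron by 0.99 and in Oligodendrocyte by 0.70 on the log2 scale. The small rise in Astrocyte lost its call under median-of-ratios scaling (0.09, adjusted p 0.23).

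Wnt7a (ENSMUSG00000030093, mm9 chromosome 6, 91313975 to 91361357), a ligand of neural progenitors that also guides brain vessels, read 41.1, 41.7 and 45.9 CPM in NSC, 28.5, 28.1 and 25.2 in Astrocyte, 20.9, 22.7 and 22.6 in Neuron, and 69.7 and 72.3 in Oligodendrocyte. Both Oligodendrocyte libraries were above every other library, and the Neuron libraries were the lowest. Its largest difference was between the Neurobasal medium with added T3 and that without (a log2 change of 1.64, SE 0.077, adjusted p 1.14e-09). Against NSC, Wnt7a rose in Oligodendrocyte (0.71) and fell in Astrocyte and Neuron (-0.64 and -0.93). Its close relative Wnt7b did not follow it. Wnt7b ranged from 29.1 to 32.0 CPM in the NSC and Astrocyte libraries and from 45.3 to 53.3 CPM in the Neuron and Oligodendrocyte libraries, and rose by 0.68 in both Neurobasal media against NSC. AU022754, at up to 2.86 CPM, overlaps Wnt7b on the other strand.

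Wnt4 (ENSMUSG00000036856, mm9 chromosome 4, 136833404 to 136855641), a ligand known from kidney and gonad development, read 2.80, 2.61 and 3.29 CPM in NSC, 0.92, 1.10 and 1.11 in Astrocyte, 0.89, 0.45 and 0.50 in Neuron, and 2.37 and 2.54 in Oligodendrocyte. NSC and Oligodendrocyte libraries were above 2 CPM and all Astrocyte and Neuron libraries under 1.2 CPM. Its largest change was the fall in Neuron vs NSC (a log2 change of -1.28, SE 0.110, adjusted p 9.82e-08), and in Oligodendrocyte vs Neuron it was higher (a log2 change of 1.11, SE 0.123, adjusted p 3.65e-06). In Oligodendrocyte vs NSC the log2 fold change was -0.17 (adjusted p 0.213), but it was called lower under median-of-ratios scaling (-0.33, adjusted p 0.025) and quantile normalization (-0.79, adjusted p 2.74e-05). Wnt3, a ligand that acts through beta-catenin, ranged from 0.68 to 0.98 CPM in NSC and Astrocyte and from 1.71 to 2.60 CPM in Neuron and Oligodendrocyte. It rose in Neuron and Oligodendrocyte vs NSC by 0.74 and 0.61, but under quantile normalization the value for Oligodendrocyte was -0.04 (adjusted p 0.721).

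**Figure D2:**
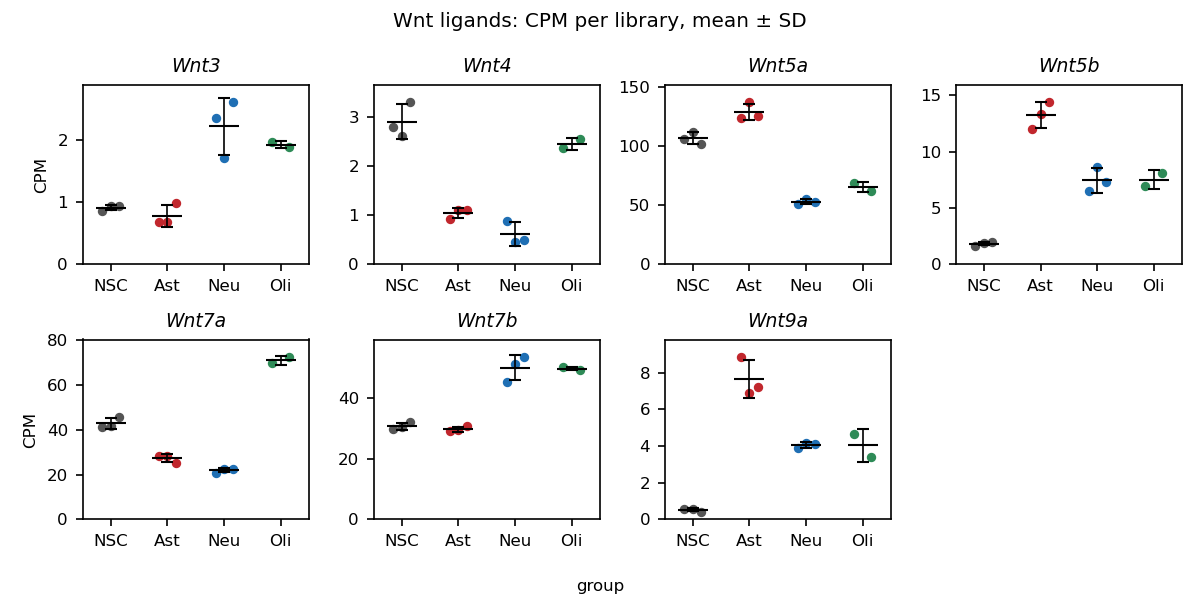
CPM of the 7 tested Wnt ligands in each library (points) with the group mean and SD (bars; n = 3, and n = 2 for Oligodendrocyte). Wnt9a and Wnt5b are lowest in NSC and highest in Astrocyte, Wnt7a is highest in the 2 Oligodendrocyte libraries, and Wnt7b and Wnt3 split NSC and Astrocyte from Neuron and Oligodendrocyte.

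Per kilobase of exon, which allows a comparison between genes within a group, Wnt5a and Wnt7a led in NSC at 13.6 and 13.5 CPM per kb, with Wnt7b at 6.27. Wnt5a led in Astrocyte (16.5), Wnt7b in Neuron (10.2, ahead of Wnt7a at 6.96 and Wnt5a at 6.79) and Wnt7a in Oligodendrocyte (22.4, ahead of Wnt7b at 10.1). These orders are of group means and were not tested. The other 12 ligands stayed under 1 CPM in every library. Wnt2b, related to Wnt2, was 0.92 and 0.69 CPM in the Oligodendrocyte libraries and 0.03 to 0.30 CPM in the other 9 libraries. Wnt2 was 0.14 to 0.17 CPM in NSC and listed at 0 in 7 of the 8 day 4 libraries. Wnt6 reached 0.45 CPM in Neuron and Wnt11 0.30 CPM in Astrocyte. Wnt3a, the ligand most used to switch on beta-catenin in culture, was listed at 0 in every library, and Wnt1, a midbrain ligand, was above 0 in 1 library only, at 0.02 CPM.

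All 10 Frizzled receptors, the membrane proteins that bind Wnts, were tested. Against NSC 8 were called in Astrocyte (4 higher, 4 lower), 7 in Neuron (2 higher, 5 lower) and 9 in Oligodendrocyte (4 higher, 5 lower), beside 83.6%, 83.1% and 80.2% of all genes. Fzd9 (ENSMUSG00000049551, mm9 chromosome 5, 135724808 to 135727100), a receptor found in neural progenitors, read 65.5, 66.6 and 72.9 CPM in NSC, 3.63, 4.44 and 5.11 in Astrocyte, 9.82, 10.1 and 9.50 in Neuron, and 2.87 and 2.65 in Oligodendrocyte. Every day 4 library was under 11 CPM and every NSC library above 65 CPM, and the 4 groups did not overlap. Fzd9 fell most in Oligodendrocyte vs NSC (a log2 change of -4.20, SE 0.107, adjusted p 6e-13), and was lower in Oligodendrocyte than in Neuron (a log2 change of -1.52, SE 0.107, adjusted p 4.8e-08). The falls in Astrocyte and Neuron vs NSC were -3.69 and -2.68. Fzd10 (ENSMUSG00000081683, mm9 chromosome 5, 129106719 to 129109968), the relative of Fzd9, read 10.9, 10.4 and 13.5 CPM in NSC, 1.19, 0.86 and 0.89 in Astrocyte, 0.37, 0.81 and 0.70 in Neuron, and 0.58 and 0.33 in Oligodendrocyte. The NSC libraries were all above 10 CPM, and among the day 4 libraries only Astrocyte replicate 1 passed 1 CPM. Fzd10 fell most in Oligodendrocyte vs NSC (a log2 change of -3.11, SE 0.143, adjusted p 1.61e-10). Its day 4 values are low, and the difference of Oligodendrocyte from Astrocyte (a log2 change of -0.45, SE 0.143, adjusted p 0.019) lost its call without Astrocyte replicate 1 (adjusted p 0.064) and without Oligodendrocyte replicate 2 (adjusted p 0.183).

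Fzd6 and Fzd8 moved the other way. Fzd6 (ENSMUSG00000022297, mm9 chromosome 15, 38837879 to 38869732), a receptor known for planar polarity of hair and epithelia, read 0.95, 1.13 and 1.16 CPM in NSC, 13.7, 12.4 and 11.9 in Astrocyte, 4.38, 5.18 and 4.05 in Neuron, and 19.1 and 16.6 in Oligodendrocyte. NSC libraries lay near 1 CPM, Neuron libraries near 5 CPM, and Astrocyte and Oligodendrocyte libraries above 11 CPM. The rise was largest in Oligodendrocyte vs NSC (a log2 change of 3.18, SE 0.109, adjusted p 8.21e-12), and among day 4 cultures in Oligodendrocyte vs Neuron (a log2 change of 1.77, SE 0.109, adjusted p 1.41e-08). Fzd8 (ENSMUSG00000036904, mm9 chromosome 18, 9212854 to 9216199), a receptor of beta-catenin signalling, read 4.68, 4.85 and 5.39 CPM in NSC, 15.2, 15.2 and 16.8 in Astrocyte, 10.2, 11.6 and 10.8 in Neuron, and 18.2 and 17.9 in Oligodendrocyte. The groups kept the order NSC, Neuron, Astrocyte, Oligodendrocyte without overlap, although the last 2 did not differ beyond the test (adjusted p 0.0871). Fzd8 rose in Oligodendrocyte vs NSC (a log2 change of 1.67, SE 0.087, adjusted p 6.05e-10) and was higher in Oligodendrocyte than in Neuron (a log2 change of 0.68, SE 0.087, adjusted p 1.37e-05). Fzd6 is one of several genes here that were high in Astrocyte and Oligodendrocyte and low in NSC and Neuron. Summed ependymal and choroid plexus markers (Ttr, Folr1, Foxj1, Kl) were also lower in NSC and Neuron than in Astrocyte and Oligodendrocyte. The sum was 16.4 to 19.0 CPM in NSC, 223 to 241 in Astrocyte, 42.2 to 56.1 in Neuron and 133 to 137 in Oligodendrocyte, and was mostly Foxj1. The other markers did not share this order. Folr1 overlapped between Neuron (1.89 to 2.78 CPM) and Oligodendrocyte (2.09 and 2.29 CPM), and Ttr and Kl had higher means in Neuron than in Oligodendrocyte. Only Foxj1 in all groups, and Folr1 at day 4, reached 1 CPM, while Ttr was listed at 0 in NSC and Kl at 0 in Astrocyte. The part of these markers in the Fzd6 values was not tested.

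Fzd4 (ENSMUSG00000049791, mm9 chromosome 7, 96552876 to 96558620), which also binds the vessel factor Norrin, read 5.79, 6.87 and 5.43 CPM in NSC, 6.99, 6.50 and 4.57 in Astrocyte, 2.90, 1.97 and 2.34 in Neuron, and 16.8 and 16.9 in Oligodendrocyte. The Oligodendrocyte libraries were above and the Neuron libraries below all others, while NSC and Astrocyte overlapped. Oligodendrocyte vs Neuron, the largest of its differences, reached 2.40 (SE 0.154, adjusted p 2.07e-08). Endothelial markers (Pecam1, Cdh5, Cldn5, Kdr, Tie1) summed to 1.34 to 1.76 CPM in NSC, 5.45 to 7.29 in Astrocyte, 1.05 to 1.93 in Neuron and 2.73 to 2.96 in Oligodendrocyte, only Kdr reaching 1 CPM. Cdh5 was listed at 0 in every day 4 library, and Cldn5 in every Astrocyte and Oligodendrocyte library. The part of these markers in the Fzd4 values was not tested. Fzd3 (ENSMUSG00000007989, mm9 chromosome 14, 65819863 to 65881300), a receptor for axon guidance, read 55.9, 64.6 and 37.0 CPM in NSC, 143, 138 and 105 in Astrocyte, 94.6, 41.8 and 81.3 in Neuron, and 103 and 113 in Oligodendrocyte. It was high in Astrocyte and Oligodendrocyte and uneven elsewhere, with Neuron replicate 2 inside the NSC range. Fzd3 rose in Astrocyte vs NSC (a log2 change of 1.30, SE 0.255, adjusted p 0.000316) and was higher in Astrocyte than in Neuron (a log2 change of 0.89, SE 0.255, adjusted p 0.00831). For Neuron vs NSC the log2 fold change was 0.42 (adjusted p 0.144), and without Neuron replicate 2 it was 0.77 (adjusted p 0.000422).

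The remaining Frizzled genes changed by less than 2-fold on the log2(CPM + 1) scale. Fzd1 was 34.8 to 36.4 CPM in NSC and 15.4 to 23.4 CPM in the day 4 libraries, and fell by 0.98, 0.69 and 0.90 on the log2 scale in Astrocyte, Neuron and Oligodendrocyte. Fzd5, known from eye development, was 9.96 to 13.2 CPM in NSC and Astrocyte and 5.45 to 6.28 CPM in both Neurobasal media, with falls of 0.82 and 0.79. Fzd7, a receptor of stem cells, was 16.5 to 18.5 CPM in NSC and Neuron and 10.3 to 12.4 CPM in Astrocyte and Oligodendrocyte. Fzd2 ranged from 13.8 to 22.7 CPM and was highest in Astrocyte. Per kilobase of exon, Fzd9 led the Frizzled genes in NSC at 29.8 CPM per kb, ahead of Fzd1 at 8.46, and Fzd3 led in Astrocyte (10.1), Neuron (5.67) and Oligodendrocyte (8.44), without a test.

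**Figure D3:**
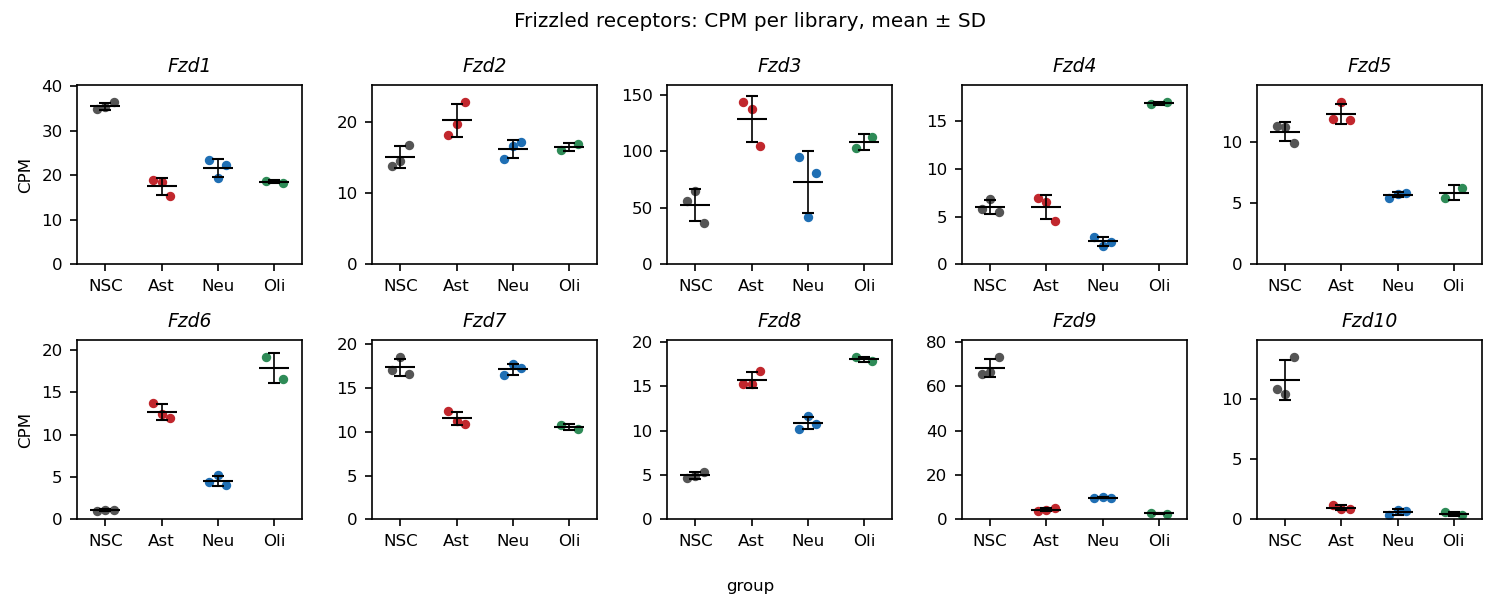
CPM of the 10 Frizzled genes in each library (points) with the group mean and SD (bars; n = 3, and n = 2 for Oligodendrocyte). Fzd9, Fzd10 and Fzd1 are highest in NSC, Fzd6 and Fzd8 are lowest there, Fzd4 is highest in Oligodendrocyte at 16.8 and 16.9 CPM, and Fzd3 is spread widely within NSC and Neuron.

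The co-receptors changed little. Lrp5 ranged from 28.2 to 34.9 CPM in NSC, Astrocyte and Oligodendrocyte and from 41.3 to 54.4 CPM in Neuron, where it rose by 0.68 vs NSC (adjusted p 3.08e-05). Lrp6 ranged from 78.6 to 130.5 CPM and rose in Astrocyte and Oligodendrocyte vs NSC by 0.41 and 0.55, the former losing its call under median-of-ratios scaling (0.23, adjusted p 0.0556). For Lrp6 in Neuron vs NSC the adjusted p was 0.143, and without Neuron replicate 2, its lowest Neuron library, the log2 fold change was 0.33 (adjusted p 0.00151).

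R-spondins raise Wnt sensitivity by drawing the ligases Znrf3 and Rnf43, which remove Frizzled receptors, together with Lgr receptors. None of the 4 R-spondin genes reached 0.5 CPM in any library; Rspo1 was highest, at 0.41 CPM in Astrocyte replicate 2. The receptors and ligases were present. Lgr5 (ENSMUSG00000020140, mm9 chromosome 10, 114887367 to 115024836), a Wnt target and a stem cell marker in the gut, read 14.54, 15.6 and 13.5 CPM in NSC, 1.5, 1.59 and 1.28 in Astrocyte, 4.12, 2.57 and 3.61 in Neuron, and 2.26 and 2.65 in Oligodendrocyte. The NSC libraries were above 13 CPM and all day 4 libraries under 4.2 CPM, with Astrocyte lowest. Lgr5 fell most in Astrocyte vs NSC (a log2 change of -2.66, SE 0.122, adjusted p 1.07e-10), and was lower in Astrocyte than in Neuron (a log2 change of -0.84, SE 0.122, adjusted p 4.75e-05). Lgr4 (ENSMUSG00000050199, mm9 chromosome 2, 109757804 to 109854414), a widely expressed relative, read 20.3, 19.8 and 19.2 CPM in NSC, 46.9, 39.8 and 37.6 in Astrocyte, 35.8, 38.6 and 37.4 in Neuron, and 39.5 and 41.9 in Oligodendrocyte. It went the other way from Lgr5, with every day 4 library above 37 CPM except Neuron replicate 1, and all NSC libraries near 20 CPM. Lgr4 rose in Astrocyte vs NSC (a log2 change of 1.03, SE 0.078, adjusted p 2.4e-08). The day 4 groups did not differ beyond the test, the largest log2 fold change being 0.14 in Astrocyte vs Neuron (SE 0.078, adjusted p 0.125), although without Astrocyte replicate 3 it was 0.21 (adjusted p 0.0406). Lgr6 stayed at or under 0.54 CPM.

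Znrf3 (ENSMUSG00000041961, mm9 chromosome 11, 5176327 to 5344850), itself a Wnt target, read 44.7, 47.4 and 42.1 CPM in NSC, 21.8, 19.1 and 17.6 in Astrocyte, 19.9, 15.7 and 18.3 in Neuron, and 20.98 and 20.4 in Oligodendrocyte. All NSC libraries were above 42 CPM and all day 4 libraries under 22 CPM. It fell most in Neuron vs NSC (a log2 change of -1.27, SE 0.094, adjusted p 1.85e-08), and among day 4 cultures its largest log2 fold change was 0.20 in Oligodendrocyte vs Neuron (SE 0.105, adjusted p 0.106), and 0.27 without Neuron replicate 1 (adjusted p 0.0392). Rnf43, its partner ligase, was 2.38 to 3.1 CPM in NSC and 1.15 to 2.05 CPM at day 4, and fell by 0.73, 0.46 and 0.48 in Astrocyte, Neuron and Oligodendrocyte.

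Of the 12 secreted or surface inhibitors 6 were tested. Against NSC 5 were called in Astrocyte (4 higher, 1 lower), 5 in Neuron (3 higher, 2 lower) and 6 in Oligodendrocyte (4 higher, 2 lower), beside 83.6%, 83.1% and 80.2% of all genes. Dkk3 (ENSMUSG00000030772, mm9 chromosome 7, 119259533 to 119302571), a secreted Dickkopf family member whose effect on Wnt signalling varies between settings, had the largest difference of all tested Wnt genes in Neuron vs NSC and in Oligodendrocyte vs Neuron. Dkk3 read 0.42, 0.54 and 0.42 CPM in NSC, 3.68, 3.39 and 3.98 in Astrocyte, 44.2, 43.8 and 49.6 in Neuron, and 0.92 and 0.85 in Oligodendrocyte. The Neuron libraries were more than 10 times as high as any other library, and the Oligodendrocyte libraries, in the same medium with added T3, were under 1 CPM. Dkk3 rose in Neuron vs NSC (a log2 change of 5.00, SE 0.085, adjusted p 1.44e-14), and was lower in Oligodendrocyte than in Neuron (a log2 change of -4.63, SE 0.095, adjusted p 1.18e-12). It also rose in Astrocyte vs NSC (1.68). In Oligodendrocyte vs NSC, with all 5 libraries under 1 CPM, the rise of 0.37 turned to -0.28 under quantile normalization (adjusted p 0.00842) and lost its call with a pseudocount of 5 (0.11, adjusted p 0.105). Oligodendrocyte precursor markers (Pdgfra, Cspg4, Olig1, Olig2) summed to 848 to 1033 CPM in Neuron, 722 to 774 in Oligodendrocyte, 414 to 452 in Astrocyte and 1782 to 1910 in NSC, all 4 reaching 1 CPM in every group. Of them Pdgfra alone had its highest mean in Neuron (211 ± 37.4 CPM, SD, n = 3). Its means were 21.2 ± 0.981 in NSC, 76.9 ± 8.09 in Astrocyte and 66.2 ± 0.0071 in Oligodendrocyte. Cspg4, Olig1 and Olig2 had their highest means in NSC, at 61.0, 1019 and 733 CPM. The part of these markers in the Dkk3 values was not tested. Dkk1, Dkk2 and Dkk4, the better known Dickkopf inhibitors of Lrp5 and Lrp6, were at or under 0.08 CPM in every library.

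Secreted Frizzled-related proteins (Sfrp) hold Wnts away from their receptors. Sfrp1 (ENSMUSG00000031548, mm9 chromosome 8, 24521974 to 24560104) read 9.88, 10.4 and 10.4 CPM in NSC, 38.0, 45.3 and 39.8 in Astrocyte, 23.1, 18.0 and 24.5 in Neuron, and 27.8 and 33.2 in Oligodendrocyte. NSC libraries were near 10 CPM and all day 4 libraries above 18 CPM, highest in Astrocyte. Sfrp1 rose in Astrocyte vs NSC (a log2 change of 1.90, SE 0.108, adjusted p 1.11e-09) and was higher in Astrocyte than in Neuron (a log2 change of 0.88, SE 0.108, adjusted p 1.01e-05). Sfrp2 (ENSMUSG00000027996, mm9 chromosome 3, 83570243 to 83578238) moved against it and read 6.08, 6.57 and 6.96 CPM in NSC, 1.52, 1.74 and 1.45 in Astrocyte, 2.96, 3.08 and 2.67 in Neuron, and 3.26 and 2.41 in Oligodendrocyte. The NSC libraries were all above 6 CPM, the Astrocyte libraries all under 1.8 CPM, and Neuron and Oligodendrocyte overlapped in between. Sfrp2 fell in Astrocyte vs NSC (a log2 change of -1.55, SE 0.099, adjusted p 3.69e-09) and was lower in Astrocyte than in Neuron (a log2 change of -0.60, SE 0.099, adjusted p 0.000136).

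Sfrp5 (ENSMUSG00000018822, mm9 chromosome 19, 42272461 to 42276742) was high in 2 of the day 4 media and read 0.24, 0.17 and 0.25 CPM in NSC, 2.40, 2.21 and 4.36 in Astrocyte, 0.16, 0.13 and 0.10 in Neuron, and 4.16 and 2.73 in Oligodendrocyte. All NSC and Neuron libraries were at or under 0.25 CPM and all Astrocyte and Oligodendrocyte libraries above 2 CPM, with Astrocyte replicate 3 and Oligodendrocyte replicate 1 highest. The difference was largest in Oligodendrocyte vs Neuron (log2 fold change 1.96, SE 0.188, adjusted p 9.35e-07). The sum of the ependymal and choroid plexus markers named above for Fzd6, mostly Foxj1, was also higher in these 2 groups. The part of these markers here was not tested either. Sfrp4 was 0.94 to 1.30 CPM in Neuron, 1.72 to 2.63 CPM in NSC and Astrocyte, and 3.55 and 2.60 CPM in Oligodendrocyte, the latter inside the Astrocyte range. It fell in Neuron vs NSC (-0.47) and rose in Oligodendrocyte vs NSC (0.50), but this rise lost its call without Oligodendrocyte replicate 1 (0.33, adjusted p 0.0887) and was -0.15 under quantile normalization (adjusted p 0.282). In Astrocyte vs NSC Sfrp4 did not pass the test (0.09, adjusted p 0.493), and under quantile normalization it was -0.57 (adjusted p 0.000426).

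Apcdd1 (ENSMUSG00000071847, mm9 chromosome 18, 63081981 to 63112849), a membrane-bound inhibitor and Wnt target, read 4.02, 4.37 and 4.35 CPM in NSC, 6.60, 6.44 and 8.07 in Astrocyte, 8.87, 8.17 and 9.50 in Neuron, and 2.83 and 3.12 in Oligodendrocyte. The Neuron libraries were the highest and the Oligodendrocyte libraries the lowest, so that both Neurobasal media lay on opposite sides of NSC. Apcdd1 was lower in Oligodendrocyte than in Neuron (a log2 change of -1.31, SE 0.104, adjusted p 1.62e-07). Notum, a secreted enzyme that strips the lipid from Wnts, was 0.42 to 0.59 CPM in NSC, 0.17 to 0.41 CPM in Astrocyte and Neuron, and 0.81 and 0.63 CPM in Oligodendrocyte. Wif1, which binds Wnts, stayed at or under 0.30 CPM. Per kilobase of exon, Sfrp2 (3.04) and Sfrp1 (2.34) led the inhibitors in NSC, Sfrp1 led in Astrocyte (9.39) and Oligodendrocyte (6.97), and Dkk3 led in Neuron (13.7), without a test.

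**Figure D4:**
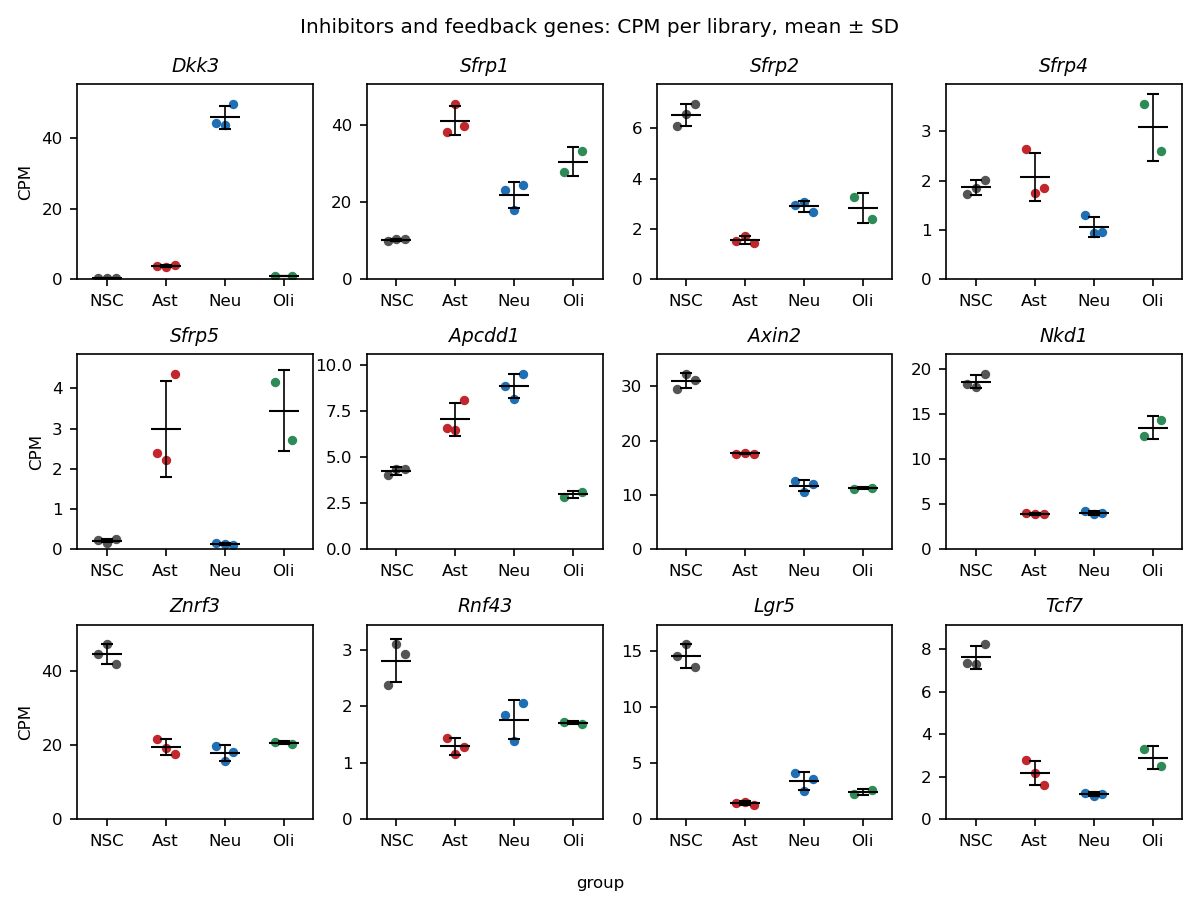
CPM of the 6 tested inhibitors and of 6 feedback or receptor-control genes in each library (points) with the group mean and SD (bars; n = 3, and n = 2 for Oligodendrocyte). Dkk3 is high in the 3 Neuron libraries alone, Sfrp5 in Astrocyte and Oligodendrocyte, and Axin2, Znrf3, Lgr5 and Tcf7 are highest in NSC, while Nkd1 is high in NSC and Oligodendrocyte.

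Of beta-catenin and its controllers 4 of 5 genes were tested, and all 4 were called against NSC, 1 higher and 3 lower in Astrocyte and in Neuron, and 4 lower in Oligodendrocyte, beside 83.6%, 83.1% and 80.2% of all genes called; of the last 4, the call of Ctnnb1 did not hold throughout. Ctnnb1 ranged from 721 to 741 CPM in NSC, from 1057 to 1162 CPM in Astrocyte and Neuron, and was 671 and 633 CPM in Oligodendrocyte. It rose in Astrocyte and Neuron vs NSC by 0.53 and 0.61, and was lower in Oligodendrocyte than in Neuron by 0.78 on the log2 scale (adjusted p 5.18e-07). In Oligodendrocyte vs NSC the value of -0.17 (adjusted p 0.0406) lost its call without any 1 of the NSC libraries (adjusted p 0.0688, 0.0989 and 0.0772 without replicates 1, 2 and 3), without Astrocyte replicate 2 (0.0597) or 3 (0.05), and without Oligodendrocyte replicate 1 (0.0553) or 2 (0.226). Ulk4, at up to 11.4 CPM, overlaps Ctnnb1 on the other strand. Ctnnb1 RNA says nothing of the protein, which Wnt signalling controls by its destruction.

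Axin2 (ENSMUSG00000000142, mm9 chromosome 11, 108781663 to 108812097), a scaffold of the destruction complex and the target gene most often read as a sign of Wnt activity, read 29.5, 32.3 and 31.2 CPM in NSC, 17.6, 17.8 and 17.6 in Astrocyte, 12.5, 10.6 and 12.1 in Neuron, and 11.1 and 11.4 in Oligodendrocyte. The NSC libraries were above 29 CPM, the Astrocyte libraries between 17 and 18 CPM, and the Neuron and Oligodendrocyte libraries overlapped between 10 and 13 CPM. Axin2 fell most in Oligodendrocyte vs NSC (a log2 change of -1.38, SE 0.081, adjusted p 1.97e-09), and was lower in Oligodendrocyte than in Astrocyte (a log2 change of -0.61, SE 0.081, adjusted p 3.47e-05). Axin1, the relative of Axin2, was 52.8 to 56.1 CPM in NSC and 31.8 to 41.5 CPM at day 4, with falls of 0.49, 0.53 and 0.70 in Astrocyte, Neuron and Oligodendrocyte. Nkd1 (ENSMUSG00000031661, mm9 chromosome 8, 91045243 to 91118786), a feedback inhibitor that binds Dishevelled, read 18.3, 18.0 and 19.4 CPM in NSC, 4.08, 3.87 and 3.87 in Astrocyte, 4.26, 3.87 and 4.00 in Neuron, and 12.6 and 14.4 in Oligodendrocyte. The Oligodendrocyte libraries lay between the NSC libraries and those of Astrocyte and Neuron, which were all near 4 CPM. Nkd1 fell in Astrocyte vs NSC (a log2 change of -1.99, SE 0.077, adjusted p 1.98e-11), and was higher in Oligodendrocyte than in Astrocyte (a log2 change of 1.55, SE 0.086, adjusted p 1.13e-08). In Oligodendrocyte vs NSC it fell by 0.44. Nkd2, its relative, missed the minimum for testing, with 0.92 and 1.06 CPM in Oligodendrocyte and 0.18 to 0.82 CPM elsewhere.

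Among the transcription factors that carry beta-catenin to DNA, Tcf7 fell and Tcf7l1 and Tcf7l2 rose in all 3 day 4 cultures. Tcf7 (ENSMUSG00000000782, mm9 chromosome 11, 52065873 to 52096681), often an activator and itself a Wnt target, read 7.33, 7.29 and 8.24 CPM in NSC, 2.77, 2.18 and 1.62 in Astrocyte, 1.26, 1.11 and 1.20 in Neuron, and 3.30 and 2.51 in Oligodendrocyte. NSC libraries were above 7 CPM and all day 4 libraries under 3.5 CPM, with Neuron lowest. The fall was largest in Neuron vs NSC (a log2 change of -1.98, SE 0.124, adjusted p 3.47e-09), and Tcf7 was higher in Oligodendrocyte than in Neuron (a log2 change of 0.83, SE 0.139, adjusted p 0.00015). Tcf7l1 (ENSMUSG00000055799, mm9 chromosome 6, 72576372 to 72739248), mostly a repressor, read 12.2, 13.2 and 14.6 CPM in NSC, 38.7, 36.2 and 32.4 in Astrocyte, 40.1, 35.5 and 42.3 in Neuron, and 47.7 and 48.6 in Oligodendrocyte. Every day 4 library was above 32 CPM and every NSC library under 15 CPM. Tcf7l1 rose in Oligodendrocyte vs NSC (a log2 change of 1.78, SE 0.097, adjusted p 9.41e-10) and was higher in Oligodendrocyte than in Astrocyte (a log2 change of 0.42, SE 0.097, adjusted p 0.00263). Tcf7l2 (ENSMUSG00000024985, mm9 chromosome 19, 55816300 to 56008144), known from the maturing oligodendrocyte lineage, read 34.5, 34.0 and 33.0 CPM in NSC, 59.2, 53.6 and 52.0 in Astrocyte, 76.1, 81.5 and 79.4 in Neuron, and 59.3 and 61.1 in Oligodendrocyte. The Neuron libraries were the highest and the NSC libraries the lowest. Tcf7l2 rose in Neuron vs NSC (a log2 change of 1.20, SE 0.061, adjusted p 3.48e-10), and was lower in Astrocyte than in Neuron (a log2 change of -0.52, SE 0.061, adjusted p 6.77e-06). Lef1, the remaining member, did not pass 0.18 CPM in any library.

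Taking the 4 groups side by side, 11 of the 36 Wnt genes (30.6%) were called higher in NSC than in each other group, beside 25.9% of all tested genes. They were the receptors Fzd1, Fzd9, Fzd10 and Lgr5, the inhibitor Sfrp2, the ligases Znrf3 and Rnf43, Axin1, Axin2, Nkd1 and Tcf7. Another 9 (25%, all genes 34.4%) were called lower in NSC than in each other group: Wnt5b, Wnt9a, Fzd6, Fzd8, Lgr4, Dkk3, Sfrp1, Tcf7l1 and Tcf7l2. Of the 11 genes higher in NSC, Axin2, Nkd1, Lgr5, Znrf3, Rnf43 and Tcf7 are known as Wnt target genes. Apcdd1, also known as one, was higher in Astrocyte and Neuron than in NSC and lower in Oligodendrocyte. The division markers named above fell with the same contrast, and their part in these falls was not tested.

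The day 4 groups each had their own genes. In Astrocyte 5 genes (13.9%, all genes 10.3%) were called higher than in each other group, Wnt5a, Wnt5b, Wnt9a, Fzd2 and Sfrp1, and 2 were called lower (5.56%, all genes 3.87%), Lgr5 and Sfrp2. In Neuron 4 (11.1%, all genes 9.05%) were called higher, Dkk3, Apcdd1, Lrp5 and Tcf7l2, and 6 lower (16.7%, all genes 15.4%), Wnt4, Wnt5a, Wnt7a, Fzd4, Sfrp4 and Tcf7. In Oligodendrocyte 5 (13.9%, all genes 12.9%) were called higher, Wnt7a, Fzd4, Fzd6, Sfrp4 and Tcf7l1, and 3 lower (8.33%, all genes 4.36%), Apcdd1, Ctnnb1 and Fzd9. These shares were near those of all genes.

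Several of the smaller differences behind these 3 sets lost their call when 1 library was left out or the scaling was changed. In the Astrocyte set, Fzd2 lost its call against Neuron without Astrocyte replicate 3 (adjusted p 0.0741) or Neuron replicate 1 (0.0623), and against Oligodendrocyte without either Oligodendrocyte library (0.187 and 0.107), without Astrocyte replicate 2 (0.0713) or 3 (0.156), without NSC replicate 2 (0.0572) and without Neuron replicate 3 (0.0514). Sfrp1 in Astrocyte lost its call against Oligodendrocyte without Oligodendrocyte replicate 1 (0.136), and Lgr5 without Oligodendrocyte replicate 2 (0.0876). In the Neuron set, Apcdd1 lost its call against Astrocyte without Astrocyte replicate 1 (0.0507) or 2 (0.065) or Neuron replicate 3 (0.0609), and Wnt4 without Neuron replicate 3 (0.0554). In the Oligodendrocyte set, Fzd6 lost its call against Astrocyte without Oligodendrocyte replicate 1 (0.0509), Sfrp4 without Astrocyte replicate 2 (0.0923) or 3 (0.0711) or Oligodendrocyte replicate 1 (0.272), and Tcf7l1 against Neuron without either Oligodendrocyte library (0.0643 and 0.0871). Ctnnb1 in the same set lost its call against NSC without either Oligodendrocyte library (0.0553 and 0.226) and in the other cases given above. Under median-of-ratios and quantile scaling, Fzd2 lost its call between Astrocyte and Neuron (adjusted p 0.0894 and 0.223). Between Oligodendrocyte and Neuron, Tcf7l1 (0.135 and 0.283) and Wnt5a (0.0975 and 0.144) lost theirs under both. Quantile normalization also removed the calls of Wnt7a (0.0851) and Wnt4 (0.165) between Astrocyte and Neuron, and of Ctnnb1 against NSC (0.181).

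The second question was how the Wnt genes differed when T3 was added to the neuron medium. Per the labels the added T3 was the one difference between the Oligodendrocyte and Neuron media. Of the 9 Wnt genes called at 2-fold or more, 6 were higher with added T3, Fzd4, Sfrp5, Fzd6, Wnt7a, Nkd1 and Wnt4, and 3 were lower, Dkk3, Fzd9 and Apcdd1. Log2 fold changes ran from -4.63 for Dkk3 to 2.40 for Fzd4. The ligands Wnt3, Wnt5b, Wnt7b and Wnt9a had log2 fold changes between -0.13 and 0.01 in this comparison and did not pass the test, and Axin2 was -0.05 (adjusted p 0.579). Under median-of-ratios scaling Axin2 was lower with added T3 by 0.18 (adjusted p 0.0478). After quantile normalization Axin2 (-0.27, adjusted p 0.00611), Wnt3 (-0.33, adjusted p 0.0185) and Wnt7b (-0.19, adjusted p 0.0386) were all called lower. Of the smaller calls, that of Lrp6 was lost without either Oligodendrocyte library (adjusted p 0.0938 and 0.0741) and that of Lgr5 without NSC replicate 1 (0.0516), Neuron replicate 1 (0.138) or 3 (0.0976), or Oligodendrocyte replicate 1 (0.215) or 2 (0.0556). Sfrp1 lost its call without Oligodendrocyte replicate 2 (0.0713), and Wnt5a under median-of-ratios scaling (0.16, adjusted p 0.0975). The summed astrocyte markers given above were lower in Oligodendrocyte than in Neuron without overlap, and their part in these differences was not tested.

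**Figure D5:**
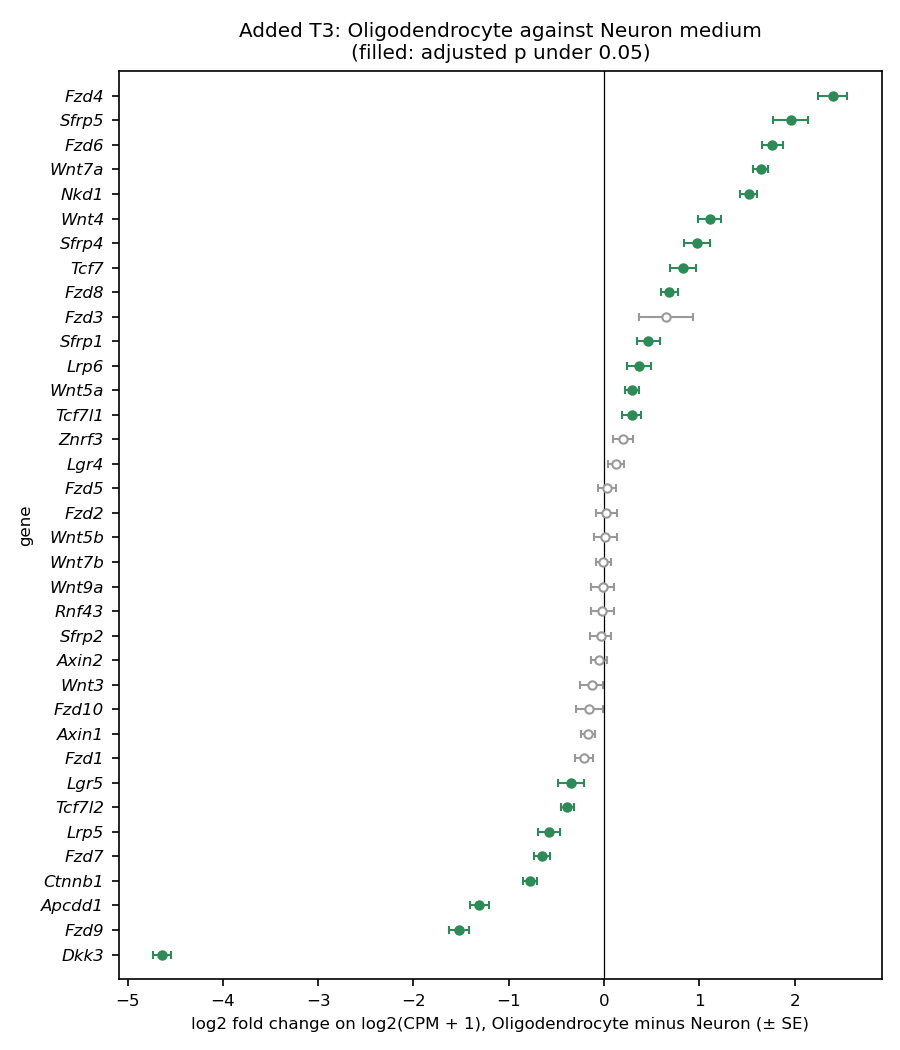
Log2 fold change on the log2(CPM + 1) scale of the 36 tested Wnt genes in Oligodendrocyte (neuron medium with added T3, 2 libraries) minus Neuron (3 libraries), with SE bars from limma; filled points have an adjusted p under 0.05. The values run from -4.63 for Dkk3 to 2.40 for Fzd4, and 15 genes are not filled.

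The other genes of the pathway, outside the symbol rule, came from lists of 58 tested genes. These lists were written with earlier results of these data known, so their counts are a description only. Against NSC 46 were called in Astrocyte, 47 in Neuron and 46 in Oligodendrocyte, or 79.3%, 81% and 79.3%, beside the shares of all genes given above. The planar polarity list, which holds genes of the Wnt branch that orients cells, had 9 tested members. In Astrocyte vs NSC 8 of the 9 rose and none fell, with a median log2 fold change of 1.51 (all genes 48% higher, 35.6% lower, median 0.15). In Neuron vs NSC 5 rose and 1 fell (median 1.82; all genes 43.5% higher, 39.6% lower, median 0.06), and in Oligodendrocyte vs NSC 7 rose and none fell (median 1.76; all genes 48.1% higher, 32.2% lower, median 0.19). Daam2, a formin that works with Dishevelled, averaged 6.21 ± 0.596 CPM (SD, n = 3) in NSC, 283 ± 25.1 in Astrocyte (n = 3), 83.3 ± 10.7 in Neuron (n = 3) and 349.8 ± 24.4 in Oligodendrocyte (n = 2). Its log2 fold changes against NSC were 5.30, 3.54 and 5.61, and it was higher with added T3 than without (a log2 change of 2.06, SE 0.109, adjusted p 3.27e-09). Celsr1, a cadherin of the polarity complex, rose by 2.76, 2.12 and 2.56 against NSC.

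Of the ligand-making genes, Porcn, which attaches the lipid to Wnts, rose by 1.28, 1.19 and 1.31 in Astrocyte, Neuron and Oligodendrocyte vs NSC. Of the 9 tested other receptors, 5 were called lower and 3 higher in Astrocyte vs NSC, 7 and 2 in Neuron, and 5 and 3 in Oligodendrocyte. Of all tested genes 35.6%, 39.6% and 32.2% were called lower, and 48%, 43.5% and 48.1% higher. Ror2, a Wnt5a receptor, was the largest fall, by 2.08, 1.81 and 1.81 on the log2 scale. Of 4 other inhibitors tested, Frzb, another Sfrp family member, averaged 1.02 ± 0.148 CPM (SD, n = 3) in NSC, 3.38 ± 0.312 in Astrocyte (n = 3), 11.2 ± 0.478 in Neuron (n = 3) and 17.0 and 14.4 in the 2 Oligodendrocyte libraries. It rose by 1.11, 2.60 and 3.04. In the Dishevelled and destruction complex list of 13, Apc2, a neural relative of Apc, was the one member with a 2-fold change, rising by 2.18, 1.79 and 2.53. In the list of 13 nuclear cofactors, the repressor Tle2 fell by 1.98, 2.64 and 2.63. Of 8 tested target genes outside the rule, Ccnd1, the cell cycle gene cyclin D1, fell by 6.37, 6.34 and 5.16, and Id2 rose by 2.67, 1.68 and 1.66. Myc fell in Astrocyte, Neuron and Oligodendrocyte, most in Oligodendrocyte (by 2.16). These target genes have other inputs than Wnt signalling.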

How the data were processed

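Poly(A) RNA from 11 libraries was made with a strand-marking kit and sequenced on a HiSeq, per the labels' protocols. The authors deposited CPM values (read counts scaled by library size) for each gene and library, rounded to hundredths, with mm9 coordinates, per the file headers. The submitters' processing notes name bcl2fastq 1.8.4, TopHat2 2.0.8, HTSeq 0.6.1, edgeR 3.2.4, R 3.0.0 and HOMER, and build NCBIM37. The strand setting of the counting is not given in the sources used here. The libraries' listed genes held 74.95% to 80.25% of the full CPM total. Read numbers could not be recovered after rounding, so no count model was used.

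Here log2(CPM + 1) was fitted with limma 3.58.1 in R 4.3.3, with 1 mean per group over all 11 libraries and a trended prior (7 residual and 5.96 prior degrees of freedom). The fit took the 13342 genes that reached 1 CPM in 2 or more libraries. The 6 pairwise comparisons were adjusted within each by Benjamini-Hochberg, with a threshold of 0.05. The fit was tested on simulated data. Genes given with every library's value were called at 2-fold or more in at least 1 comparison with no overlap of libraries. Pathway genes outside the symbol rule were named, at most 4 for a list and comparison, by the largest 2-fold calls. The members and lists were chosen with earlier results of these data known. Map2 and Draxin were not matched. The summed oligodendrocyte marker list is not reported here. Values per kilobase used exon lengths from GENCODE M21 (GRCm38), which is not the authors' annotation, for 61 of 62 rows. Promoter sequences are from RefSeq, GRCm38.p6. Alternatives were the pseudocount, the filter, the scaling, the model and leaving out each library.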

Additional observations from a re-analysis of the deposited data

Results flagged for a closer look

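These genes moved in opposite directions against NSC in a pair of day 4 media, and the direct comparison of the pair passed limma's test. The comparisons against NSC share the NSC libraries, so the direct log2 fold change is given for each. Groups of 2 or 3 libraries were not tested for outlying libraries.

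Fzd4 rose in Oligodendrocyte and fell in Neuron, and the 2 media differed by 2.40 (adjusted p 2.07e-08). Wnt7a rose in Oligodendrocyte and fell in both other media, differing by 1.64 from Neuron and by 1.35 from Astrocyte (adjusted p 1.14e-09 and 1.44e-08). Apcdd1 did the reverse, falling in Oligodendrocyte and rising in both others, with differences of -1.31 from Neuron and -1.01 from Astrocyte (adjusted p 1.62e-07 and 3.44e-06). Its rise in Astrocyte vs NSC was 0.14 under quantile normalization (adjusted p 0.177).

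Wnt5a rose in Astrocyte and fell in the Neurobasal media, so that Astrocyte minus Neuron was 1.26 (adjusted p 3.09e-09) and Oligodendrocyte minus Astrocyte -0.97 (adjusted p 1.52e-07). Its rise against NSC lost its call under median-of-ratios scaling (0.09, adjusted p 0.23). Sfrp4 differed by 0.97 between Oligodendrocyte and Neuron (adjusted p 3.79e-05), with a rise against NSC that depended on Oligodendrocyte replicate 1 (0.33 without it, adjusted p 0.0887). Ctnnb1 differed by -0.78 between Oligodendrocyte and Neuron and by -0.70 between Oligodendrocyte and Astrocyte (adjusted p 5.18e-07 and 2.64e-06), while its own fall in Oligodendrocyte vs NSC was -0.17 and lost its call in the cases given above. Of all tested genes 3.74%, 5.81% and 2.35% met the same condition for Astrocyte and Neuron, Oligodendrocyte and Neuron, and Oligodendrocyte and Astrocyte.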

How the results depend on the processing

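With a pseudocount of 5 the numbers of Wnt genes called at 2-fold or more fell to 10 (Neuron) and 9 (Oligodendrocyte) against NSC, 2 (Astrocyte) and 5 (Oligodendrocyte) against Neuron, and 2 for Oligodendrocyte against Astrocyte, where a pseudocount of 0.1 gave 8. Larger pseudocounts shrink the fold changes of low genes by construction. The number of Wnt genes called stayed within 1.5 times under all 21 settings. Leaving out 1 library gave 30 called in every case for Astrocyte vs NSC, 31 to 33 for Neuron vs NSC, 31 to 33 for Oligodendrocyte vs NSC, 25 to 30 for Astrocyte vs Neuron, 17 to 23 for Oligodendrocyte vs Neuron and 20 to 24 for Oligodendrocyte vs Astrocyte. Of 3485 recomputed values of the 167 called single differences, 3397 kept direction and call and 85 lost the call, 18 differences doing so without 1 library. Of 1021 recomputed values of those not called, 39 became called. Quantile normalization reversed 4 values: Wnt3 (-0.044), Sfrp4 (-0.15) and Dkk3 (-0.28) in Oligodendrocyte vs NSC, and Sfrp4 in Astrocyte vs NSC (-0.57); the cause was not tested. Deviations of same-numbered libraries from their group means correlated at -0.505 to 0.415 (15 pairs), and those of differently numbered ones at -0.536 to 0.541 (30 pairs). In groups of 2 or 3 libraries such deviations depend on each other, so they cannot show whether the numbers pair the samples. With the replicate block the calls were 30, 31, 33, 27, 21 and 23 in the order above, losing 3 (Ctnnb1 in Oligodendrocyte vs NSC, Rnf43 in Astrocyte vs Neuron, Axin1 in Oligodendrocyte vs Astrocyte) and gaining Fzd2 in Oligodendrocyte vs NSC. Genes under about 0.06 CPM lie within 3 reads of 0.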

Other observations

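Glypicans, surface proteoglycans that hold Wnts near their receptors, differed between the day 4 media. Gpc4 was higher in Oligodendrocyte than in Neuron (a log2 change of 1.99, SE 0.108, adjusted p 4.17e-09), and in Astrocyte than in Neuron (a log2 change of 1.28, SE 0.097, adjusted p 1.08e-07). Gpc3 went the other way in the same comparisons, by -1.28 and -1.18. Ccnd1 and Cd44, listed as target genes, differed as well. Ccnd1, far below its NSC level in every medium, was higher with added T3 than without (a log2 change of 1.18, SE 0.114, adjusted p 9.96e-07). Cd44, a hyaluronan receptor of astrocytes, was higher in Astrocyte than in Neuron (a log2 change of 1.01, SE 0.062, adjusted p 1.66e-08) and lower in Oligodendrocyte than in Astrocyte (a log2 change of -1.52, SE 0.069, adjusted p 1.9e-09).

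In the planar polarity list the members differed among themselves. Celsr2 was higher in Astrocyte and Oligodendrocyte than in Neuron, by 1.66 and 1.20. Prickle1 was lower in Astrocyte than in Neuron (a log2 change of -1.58, SE 0.093, adjusted p 1.14e-08) and stood above its Astrocyte level in Oligodendrocyte (a log2 change of 1.42, SE 0.104, adjusted p 1.31e-07). It averaged 3.19 ± 0.196 CPM (SD, n = 3) in NSC, 5.91 ± 0.708 in Astrocyte, 19.6 ± 1.78 in Neuron and 17.5 ± 0.078 (n = 2) in Oligodendrocyte.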
